A study of Mus musculus with 40 samples.

Results

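NF-kappaB is a family of transcription factors that act as dimers of Rela, Relb, Rel (c-Rel), and the p50 and p52 proteins made from Nfkb1 and Nfkb2. The RRBS CpGs described here are those within 5 kb of an annotated transcription start of these 5 genes and of Nfkbia, the inhibitor IkBalpha. On mouse build mm9 the rule found 157 of the 400298 CpG cytosines listed, each strand counted on its own: 36 in Nfkb1, 39 in Nfkb2, 27 in Rel, 30 in Rela, 4 in Relb and 21 in Nfkbia. A total of 79 of them had at least 10 reads in 36 or more of the 40 mice, and the other 78 had them in 33 to 35 mice. All 4 Relb CpGs were of the latter kind. RRBS (reduced representation bisulfite sequencing) reads DNA cut by MspI at CCGG. Unmethylated cytosines are converted by bisulfite, and the share of unconverted reads gives the percent methylation of a CpG. The libraries came from whole livers of male C57BL/6 mice (C57BL/6J in the study's methods) of 9 weeks, with no transgene or other genetic change named. Dams had been fed LF (low fat) or HF (high fat), and their male offspring were given LF or HF after weaning. There were 10 offspring in each of the 4 groups, of LF dams given LF, of LF dams given HF, of HF dams given LF, and of HF dams given HF. Per the study's methods, the males of a cage were divided between the post-weaning diets, so mice of different post-weaning groups can share a litter. The labels do not give the litter of a mouse, and all mice were treated as independent. The question was whether the diet of the dam, among offspring on the same post-weaning diet, or the post-weaning diet itself, went with a different methylation level at these starts.

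In resting cells the dimers are held in the cytoplasm by IkB proteins. Inflammatory signals lead an IkB kinase to mark IkBalpha for degradation, and Rela with p50 then enters the nucleus and binds kappaB sites. Nfkbia, Nfkb1, Nfkb2, Rel and Relb are among the genes this factor itself switches on, so that the pathway feeds back on its own parts. In liver it acts in hepatocytes and in Kupffer cells, and high fat feeding is known for activating it. CpG-rich promoters of genes used in many tissues are usually free of methylation, while the bodies of such genes are usually methylated.

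A stretch of each gene is given below from mm9, 5′ to 3′ on the strand of the gene, with the measured CpGs in capitals. The Rela stretch holds the CpGs that varied most between mice, and the others hold measured CpGs upstream of the start or, for Relb, the only ones listed. They are Rela chr19:5640852-5640896 on the plus strand (intron), Nfkb2 chr19:46379106-46379215 on the plus strand (upstream), Nfkb1 chr3:135354891-135354981 on the minus strand (upstream), Rel chr11:23671414-23671465 on the minus strand (upstream), Nfkbia chr12:56593907-56594113 on the minus strand (upstream) and Relb chr7:20214322-20214373 on the minus strand (intron).
Rela: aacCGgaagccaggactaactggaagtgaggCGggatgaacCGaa
Nfkb2: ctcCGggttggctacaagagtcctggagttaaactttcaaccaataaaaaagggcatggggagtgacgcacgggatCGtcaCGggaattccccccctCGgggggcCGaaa
Nfkb1: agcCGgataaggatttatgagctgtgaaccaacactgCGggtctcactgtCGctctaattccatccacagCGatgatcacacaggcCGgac
Rel: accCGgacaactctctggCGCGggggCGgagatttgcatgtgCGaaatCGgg
Nfkbia: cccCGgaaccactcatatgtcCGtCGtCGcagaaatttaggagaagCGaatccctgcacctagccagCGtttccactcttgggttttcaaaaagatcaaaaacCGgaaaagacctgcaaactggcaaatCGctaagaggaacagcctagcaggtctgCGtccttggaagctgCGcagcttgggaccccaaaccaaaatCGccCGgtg
Relb: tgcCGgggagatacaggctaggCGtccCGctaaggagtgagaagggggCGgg

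The genes lie at chr3:135247619-135354511 (Nfkb1, minus strand), chr19:46379227-46386580 (Nfkb2, plus), chr11:23641514-23670970 (Rel, minus), chr19:5637483-5648130 (Rela, plus), chr7:20191566-20214787 (Relb, minus) and chr12:56590398-56593634 (Nfkbia, minus). Of the CpGs, 66 were intronic, 52 intergenic, 36 in untranslated exons, 2 in coding exons and 1 in an exon that is either, by transcript.

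Around the 5′ ends of all 6 genes the CpGs were close to unmethylated. Of the 157 CpGs, 148 had a mean over mice below 20%, with a median of 0.448% and a highest mean of 10.9%. This was 94.3% of the CpGs, against 81.2% of the 267867 CpGs within 5 kb of a start of any annotated gene. Within 1 kb of a start it was 98.7% against 91.3%. For Nfkb1, which encodes the p105 precursor of p50, the 34 low CpGs had a median of 0.518% and lay from 467 bp upstream to 507 bp downstream of the gene's 5′ end. For Nfkb2, which encodes the p100 precursor of p52, the 35 low CpGs had a median of 0.394%. The 27 CpGs of Rel, all low, had a median of 0.431%, and the 27 low CpGs of Rela, which encodes p65, had the lowest median, 0.215%. The 21 CpGs of Nfkbia had a median of 0.823%, and the 4 of Relb ranged from 0.184% to 9.54%. The order of these medians is a description and was not tested. The median SD of a low CpG between mice within diet groups was 1.62 percentage points. There were 16 CpGs without a methylated read in any mouse, on 594 to 998 reads each, and a count of 0 on so many reads allows a level of up to 0.301% to 0.505% (3 reads of the total, counting error only).

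**Figure D1:**
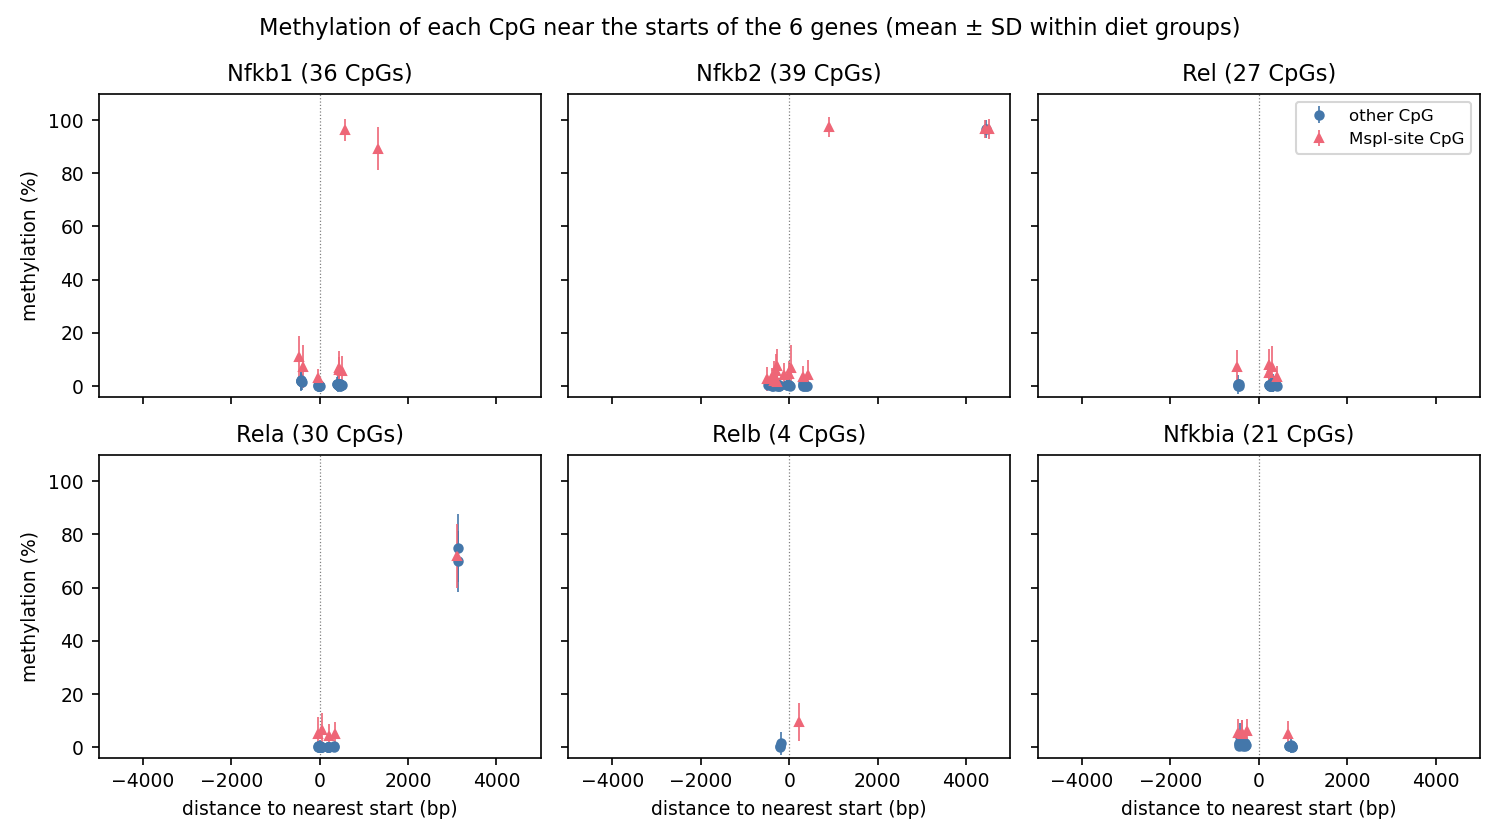
Percent methylation (vertical axis) of each of the 157 CpGs against its distance in bp from the nearest annotated start of the gene (horizontal axis, downstream positive), with bars for the SD between mice within diet groups. The 148 CpGs with a mean below 20% lie within 1008 bp of the gene's 5′ end, and 9 CpGs at 69.9% to 97.4% lie downstream in Nfkb1, Nfkb2 and Rela.

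Among the low CpGs, those that form the MspI site itself were read as more methylated than the rest. The 33 at a CCGG had a median of 4.99% (1.55% to 10.9%), and the other 115 a median of 0.327% (0% to 3.82%). The mean over the MspI-site CpGs was the higher one in 40 of 40 mice, with 5.37% ± 1.16 against 0.498% ± 0.194 (SD, n = 40). The MspI-site CpGs within 5 kb of all genes had a median of 5.6%, and the other low CpGs there 0.435%, so the split was not particular to the NF-kappaB genes. It was seen in every diet group. The MspI-site mean was 5.85% ± 0.849 in offspring of LF dams given LF, 5.71% ± 1.19 with LF dams and HF after weaning, 4.99% ± 0.781 with HF dams and LF after weaning, and 4.93% ± 1.53 with HF dams and HF after weaning (SD, n = 10 each). The groups overlapped, with single mice from 2.62% to 8.26%.

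**Figure D2:**
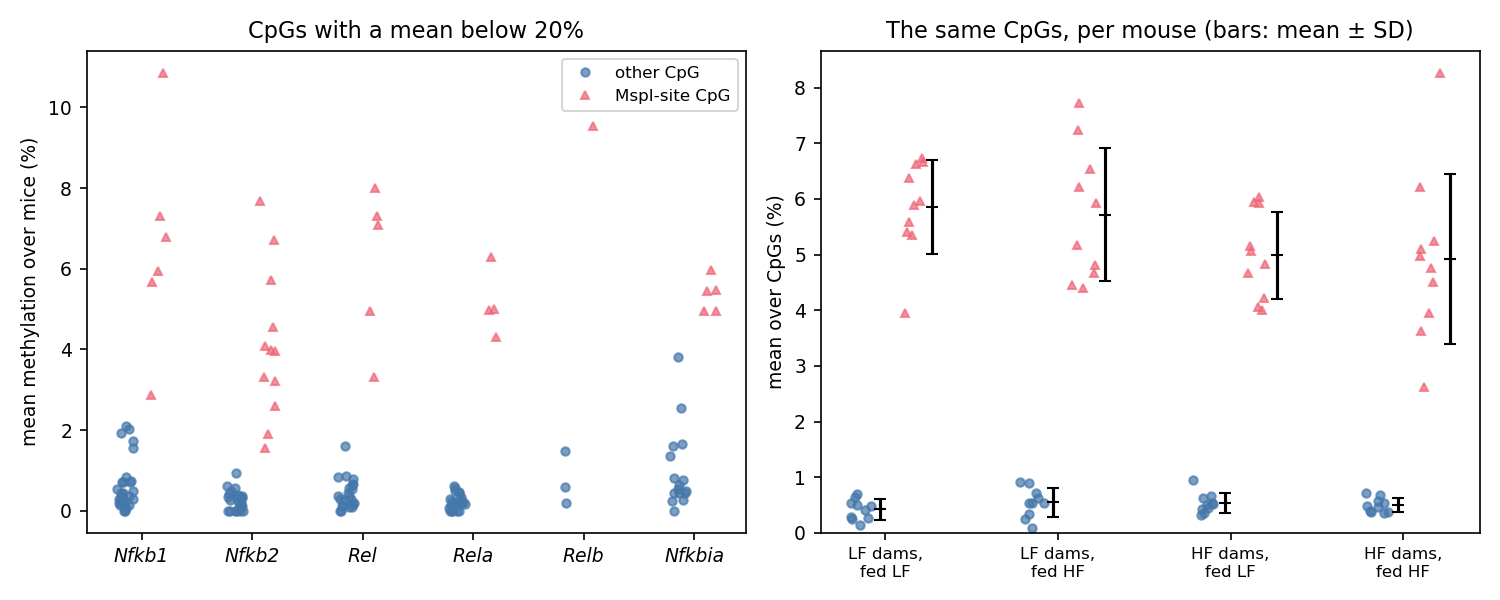
Left, mean methylation over mice (%) of each CpG with a mean below 20%, by gene, with CpGs of an MspI site as triangles and other CpGs as circles. Right, the mean over the same CpGs in each mouse by diet group, with bars for the group mean ± SD. The triangles lie above the circles in all 40 mice.

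The remaining 9 CpGs were methylated, and all 9 lay downstream of a start within a gene. They made up 2 CpGs of Nfkb1, 4 of Nfkb2 and 3 of Rela. In Nfkb1 they lay near starts of short internal transcripts, 97673 and 98433 bp from the gene's 5′ end. The CpG at position 135256838, in an exon that is coding or untranslated depending on the transcript, was at 96.4% and the intronic one at 135256078 was at 89.3%. In Nfkb2 the intronic CpGs at 46381377, 46384918 and 46384933 were at 97.4%, 96.6% and 96.7%, and the one at 46385009, in a coding exon, was at 96.8%. The latter was the farthest of all from a start, at 4521 bp. The nearest listed CpG beyond the limit of 5 kb lay 5773 bp from a start in Nfkb1 and was at 88.0%. The 3 CpGs of the Rela intron, 3372 to 3410 bp from the 5′ end of the gene (positions 5640855, 5640883 and 5640893), were at 71.8%, 74.9% and 69.9%. They varied most between mice, with SDs within diet groups of 11.6 to 12.6 percentage points where sampling of the reads alone gives 9.19 to 9.71. The other 6 methylated CpGs had SDs of 3.41 to 7.96, where sampling of the reads alone gives 3.62 to 6.25. Among them Nfkb1 135256078 had 7.96 against 6.25, so an SD above sampling was not particular to Rela.

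The depth behind these values was modest. The reads counted at all listed CpGs came to 2969910 to 23345600 per mouse (to 6 digits), and those at the NF-kappaB CpGs to 698 to 8537 per mouse (median 3084). The median over mice ranged from 16 to 32.5 reads per CpG, and 645 of the 6280 CpG and mouse values (10.3%) were missing because fewer than 10 reads covered them. Of these, 44 fell in offspring of HF dams given LF, against 170 to 234 in the other groups. One library of the offspring of HF dams given HF stood apart. It had the most reads of all mice and the lowest mean methylation over the 34368 CpGs covered in every mouse, 38.4%, with the next of its group at 39.2%. Few promoters of marker genes were covered to check the label of liver. The hepatocyte genes Hnf4a, Pck1 and Apoa2 were at 24.5%, 33.8% and 34.1% within 1 kb of a start and the leukocyte genes Cd79b and Itgam at 76.1% and 86.6%. The other 9 of 12 hepatocyte and 7 of 10 leukocyte markers had no listed CpG there, and the leukocyte marker Spi1 was not found by that name in the annotation.

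Maternal diet was first compared in offspring given HF after weaning, HF dams against LF dams. Of the 79 CpGs, 60 varied and were tested, and 0 had an FDR below 5% (the test per CpG named in the methods, with Benjamini-Hochberg adjustment over all 239809 CpGs tested, of which 0% were called). At unadjusted p below 0.05 there were 2 CpGs of the 60, both lower in offspring of HF dams, while 3.72% of all CpGs reached that level and 2.19% were lower. One was the Rel CpG at 23670548, an MspI-site CpG in an intron 422 bp from the 5′ end. It ranged from 0% to 11.1% (median 5.28%) in offspring of LF dams and from 0% to 5% (median 0%) in those of HF dams, a difference of -3.45 ± 1.48 percentage points (SE; permutation p = 0.0336, FDR 0.82). The other was the Rela intron CpG at 5640893, with a difference of -14.3 ± 5.79 percentage points (SE; exact permutation p = 0.0276, FDR 0.82). It lost this level of p when the library that stood apart was left out (-11.7 percentage points, unadjusted p = 0.0514 from the test over all CpGs). With the mean methylation of the mouse as a covariate it was -11.8 (unadjusted p = 0.0792), and the Rel CpG was not at unadjusted p below 0.05 either. The 71 low CpGs differed by -6.18 to 5.20 percentage points with a median of 0, and 22 were higher and 29 lower. With LF after weaning, 63 of the CpGs were tested and 0 reached an FDR below 5% (0% of all 240742 CpGs) or an unadjusted p below 0.05 (3.99% of all CpGs). The low CpGs differed by -4.93 to 2.63 percentage points there, 24 higher and 31 lower.

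Post-weaning diet was compared next, HF minus LF. In offspring of LF dams, 68 CpGs were tested and 0 had an FDR below 5% (0.00084% of all CpGs). There were 2 at unadjusted p below 0.05, both lower in offspring given HF, with 4.03% of all CpGs at that level and 1.81% lower. The Rel CpG at 23670671 is an MspI-site CpG. It ranged from 0% to 26.7% (median 14.3%, n = 9) in offspring given LF and from 0% to 10% (median 0%, n = 8) in offspring given HF. Its difference was -9.19 ± 3.78 percentage points (SE; exact permutation p = 0.0289, FDR 0.81). The Nfkb2 gene-body CpG at 46384933 ranged from 90.9% to 100% (median 100%) in offspring given LF and from 90% to 100% (median 93.1%) in offspring given HF, a difference of -3.91 ± 1.52 percentage points (SE; permutation p = 0.0251, FDR 0.81). Both pairs of groups overlapped. At the Rel CpG the median given LF lay above all mice given HF, and at the Nfkb2 CpG 1 of the mice given LF was at 90.9% and the next lowest at 97.0%.

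In offspring of HF dams, 61 CpGs were tested and again 0 had an FDR below 5% (0.00124% of all CpGs). The 3 CpGs at unadjusted p below 0.05, with 4.06% of all CpGs at that level and 2.6% lower, were the 3 of the Rela intron, and all were lower in offspring given HF. They lay on the same reads, since the totals of neighbouring CpGs differed by at most 1 read, so they count as 1 place rather than 3. At 5640893 offspring given LF ranged from 60.9% to 94.6% (median 82.1%) and offspring given HF from 36.8% to 78.6% (median 53.8%, 9 of 10 mice with a value). Of the latter, 6 lay below all offspring given LF, and 6 of the offspring given LF lay above all of the latter. The means were 57.5% ± 12.6 against 79.4% ± 10.3 (SD), a difference of -21.8 ± 5.25 percentage points (SE; 95% interval -32.9 to -10.8, exact permutation p = 0.00113, FDR 0.82). At 5640855 the difference was -15.9 ± 5.27 percentage points (SE; exact permutation p = 0.00730, FDR 0.82), with 35.9% to 76.9% in offspring given HF and 64.5% to 90% in offspring given LF. At 5640883 it was -14.1 ± 5.64 percentage points (SE; exact permutation p = 0.0160, FDR 0.82), with 34.2% to 90.9% and 71% to 94.4%. In offspring of LF dams the same 3 CpGs differed by 0.36 to 1.99 percentage points between the diets. Their 95% intervals ran from -11.9 to 14.3 in all.

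Mean methylation of the whole library moved with this difference. Over the CpGs covered in every mouse it was 39.3% ± 0.363 in offspring of HF dams given HF and 39.7% ± 0.164 in those given LF (SD, n = 10 each). With that mean as a covariate the differences in the Rela intron were -16.2 percentage points at 5640893 (unadjusted p = 0.0126), -9.59 at 5640855 (p = 0.107) and -6.38 at 5640883 (p = 0.284), all from the model fitted over all CpGs. With log10 total reads of the mouse as the covariate they were -22.7 (p = 0.000645), -17.0 (p = 0.00563) and -16.4 (p = 0.00410). The library that stood apart was also the lowest at all 3 CpGs, with 34.2% to 36.8%. Without it the differences were -19.3, -12.6 and -9.84 percentage points (unadjusted p = 0.00129, 0.0129 and 0.0325 over all CpGs). Over the 3 CpGs together, the reads of a mouse gave 71.8% ± 12.4 (SD, n = 10) with LF dams and LF after weaning, and 73.2% ± 10.8 (SD, n = 9) with LF dams and HF. With HF dams they gave 80.0% ± 8.69 (SD, n = 10) with LF after weaning, and 62.7% ± 13.0 (SD, n = 9) with HF. The 4 groups overlapped, and the lowest single mouse was at 35.7% in the last group.

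**Figure D3:**
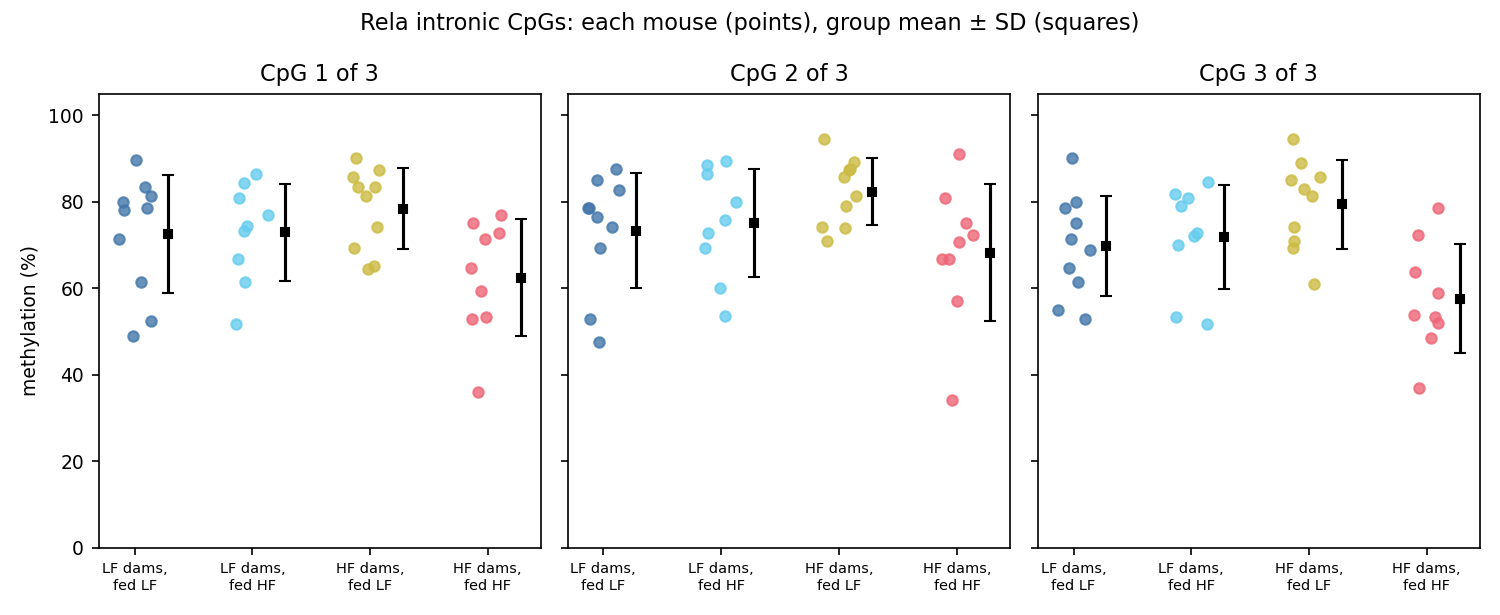
Percent methylation (vertical axis) of the 3 CpGs of the Rela intron, in gene order, in each mouse (points) by maternal and post-weaning diet, with squares and bars for the group mean ± SD. Offspring of HF dams given HF have the lowest mean at each CpG, and overlap the other groups.

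Over all 40 mice, with both diets in the model, 73 CpGs were tested for each term and 0 had an FDR below 5%. The share of all 254765 CpGs called was 0% for maternal diet, 0.00236% for post-weaning diet and 0% for the interaction. At unadjusted p below 0.05 there were 3 CpGs for maternal diet (3.96% of all CpGs), 2 higher (2% of all CpGs) and 1 lower (1.96%) in offspring of HF dams. These were a Rel CpG at 23670635 (1.27 percentage points), an Nfkbia CpG at 56594086 (1.85) and an MspI-site CpG of Nfkb2 at 46379888 (-4.46). The first 2 lay near 0, with means of 0.672% and 1.35%, and 30 of 36 and 29 of 40 mice at 0%. For post-weaning diet there were 4 (4.34% of all CpGs), 1 higher (1.91%) and 3 lower (2.42%). Nfkbia 56593910 (-3.76 percentage points), Nfkb2 46384933 (-2.74) and Rela 5640893 (-9.93) were lower in offspring given HF, and Rela 5637811 (4.32) was higher. Of these, Nfkbia 56593910 and Rela 5637811 are MspI-site CpGs. For the interaction there were 2 (4.18% of all CpGs), both below 0 (2.61%) and both in the Rela intron. The effect of maternal diet in offspring given HF minus that in offspring given LF was -23.8 ± 7.55 percentage points at 5640893 (SE; unadjusted p = 0.00332, FDR 0.87), and -16.3 ± 7.83 at 5640855 (SE; unadjusted p = 0.0451, FDR 0.87). With the mean methylation of the mouse as a covariate the first was -19.9 (unadjusted p = 0.0236), and the second was not at unadjusted p below 0.05.

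The mean over a gene's CpGs was then taken in each mouse, as the mean deviation of the mouse from the CpG means added to the mean over CpGs, and was tested for all genes with such CpGs. This used 5 CpGs for Nfkb1, 21 for Nfkb2, 17 for Rel, 21 for Rela, 15 for Nfkbia and, since no Relb CpG reached 36 mice, all 4 as deposited for Relb. In the 4 comparisons 0 of the 6 window means had an FDR below 5%, with 0%, 0%, 0% and 0.00554% of all genes called in the order above. At unadjusted p below 0.05 there were 4 of the 24 differences, while 4.86%, 5.43%, 5.36% and 5.93% of all genes reached it. The Nfkb1 mean was 38.9% with HF dams and 41.6% with LF dams in offspring given HF, a difference of -2.72 ± 1.22 percentage points (SE; permutation p = 0.0381, FDR 0.97). Its level is set by the 2 methylated CpGs among the 5, and over all 36 Nfkb1 CpGs as deposited the difference was -0.67 (permutation p = 0.176). With the mean methylation of the mouse as a covariate it was -2.16 (unadjusted p = 0.111), and with starts at the gene's 5′ end only it was -3.18 (unadjusted p = 0.137). In offspring given LF, the Nfkb2 mean ranged from 14.1% to 16.3% (median 15.1%) with HF dams and from 15.1% to 16.7% (median 15.9%) with LF dams, a difference of -0.76 ± 0.25 percentage points (SE; permutation p = 0.00724, FDR 0.81). Over all 39 Nfkb2 CpGs as deposited it was -0.42 (permutation p = 0.0565), with the same covariate -0.63 (unadjusted p = 0.0615), over CpGs covered in all 40 mice -0.90 (unadjusted p = 0.113) and within 1 kb -0.73 (unadjusted p = 0.0582). In offspring of HF dams, the Rela mean was 10.04% with HF and 11.9% with LF after weaning, a difference of -1.84 ± 0.76 percentage points (SE; permutation p = 0.0236, FDR 0.82). Within 1 kb of a start, without the intron CpGs, this difference was 0.56, and with the mean methylation of the mouse as a covariate it was -0.80 (unadjusted p = 0.339). With log10 total reads as the covariate it was -2.24 (unadjusted p = 0.00636). The Relb mean in the same comparison was 1.51% (n = 8) against 3.22% (n = 10), a difference of -1.71 ± 0.70 percentage points (SE; exact permutation p = 0.0286, FDR 0.76). Relb was tested among the windows of CpGs as deposited, of which 0% had an FDR below 5% and 6.06% an unadjusted p below 0.05. Of its 4 CpGs the MspI-site CpG at 20214370 was at 9.54% and the others at 0.184% to 1.48%.

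For Rel and Nfkbia the intervals bound how large a diet difference these data allow. The 95% intervals of the 4 Rel differences ran from -1.28 to 0.59 percentage points in all, around window means of 1.26% to 1.91%. Those of Nfkbia ran from -1.14 to 1.30, around 2.23% to 2.61%. The smallest single Nfkbia value was below 0 (-0.51), since missing CpGs of a mouse are handled through deviations. The same difference of effects was -2.45 ± 1.02 percentage points for the Rela mean (SE; unadjusted p = 0.0212, FDR 0.87), and -4.06 ± 1.79 for the Nfkb1 mean (SE; unadjusted p = 0.0290, FDR 0.89). Of all genes, 5.48% had an interaction at that level. Over all mice, maternal diet gave a difference of -0.60 ± 0.25 percentage points in the Nfkb2 mean (SE; unadjusted p = 0.0213, FDR 0.97), where 4.81% of all genes reached that level. For post-weaning diet, 0 of the 5 genes other than Relb did over all mice (5.88% of all genes, and 0.0166% with an FDR below 5%), and the Relb difference was -1.37 percentage points (unadjusted p = 0.0420, FDR 0.84). Of the gene windows as deposited, 5.86% reached that level and 0.0151% had an FDR below 5%.

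**Figure D4:**
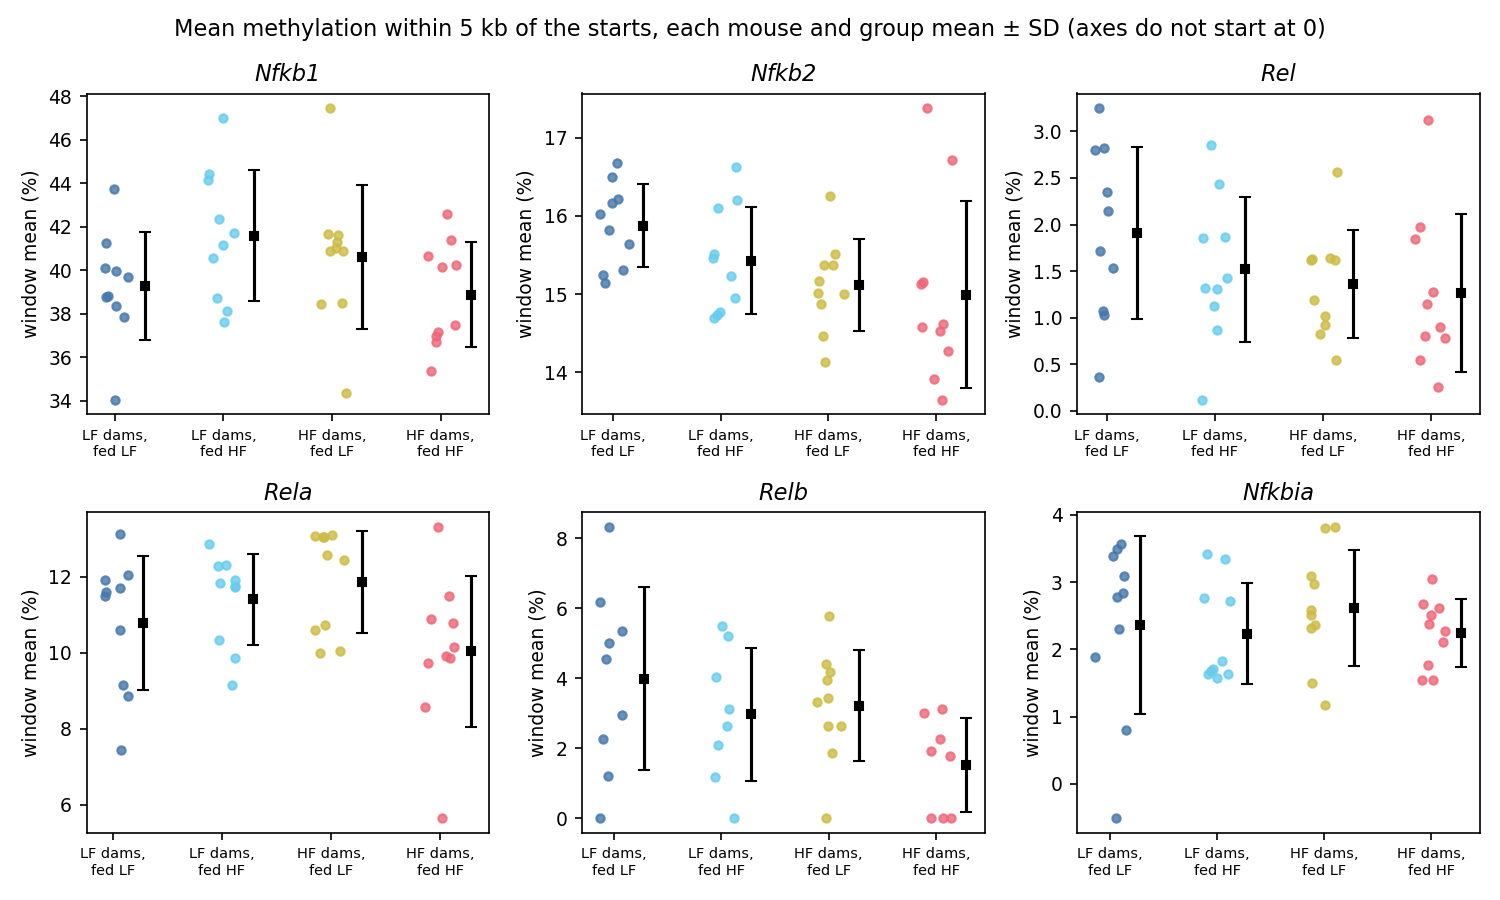
Mean methylation (%) of the CpGs within 5 kb of the starts of each gene, in each mouse (points) by maternal and post-weaning diet, with squares and bars for the group mean ± SD. Each panel has its own axis, and the 4 groups overlap in all 6 genes.

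**Figure D5:**
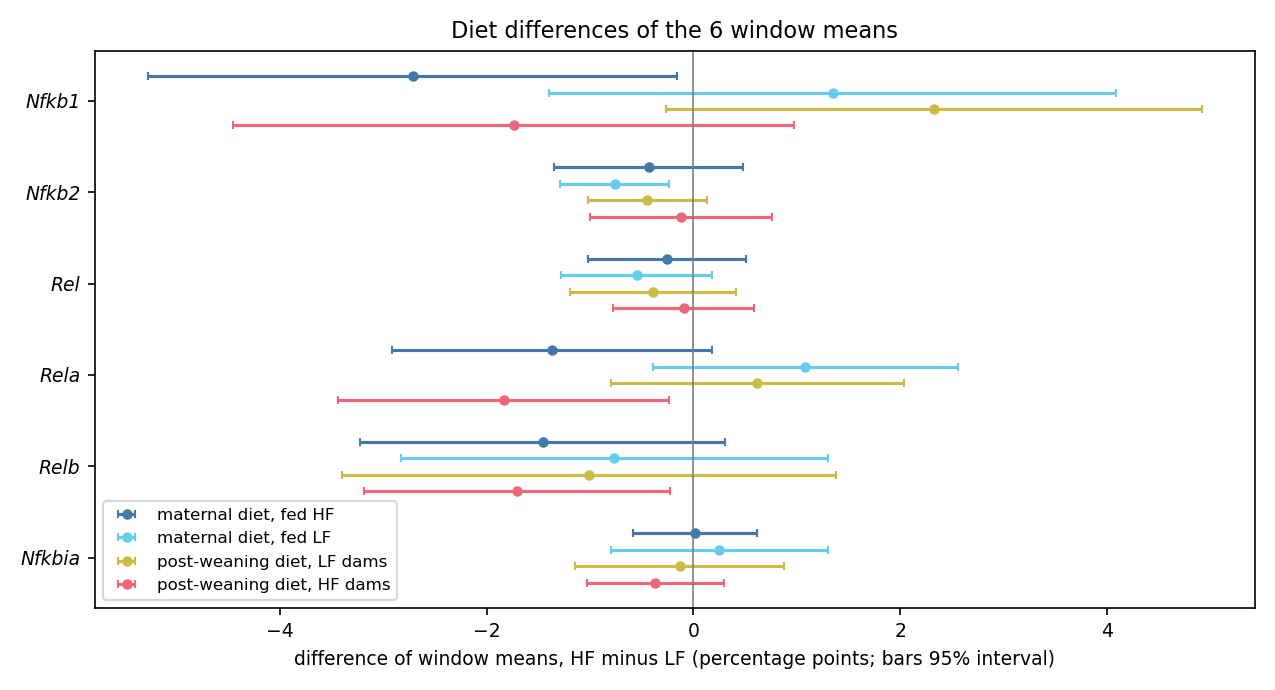
Difference of the window mean between HF and LF (percentage points, horizontal axis) for each gene and comparison, with 95% intervals. Of the 24 intervals, 4 lie wholly below 0, in Nfkb1, Nfkb2, Rela and Relb, and 0 of the 24 differences had an FDR below 5%.

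Adding the 78 CpGs read in 33 to 35 mice left the FDR counts at 0, with 0%, 0%, 0.000562% and 0.000825% of all CpGs called. With all CpGs as deposited, 4, 0, 2 and 5 NF-kappaB CpGs were at unadjusted p below 0.05 in the 4 comparisons, of 118, 119, 118 and 125 tested, while 3.63%, 3.82%, 3.88% and 3.97% of all CpGs were. Those that joined the list in these comparisons were MspI-site CpGs. At Nfkb1 one MspI site was listed on both strands. Its minus strand cytosine, 135354078, had 1.95% ± 3.24 (SD, n = 9) with HF and 8.52% ± 5.64 (SD, n = 9) with LF after weaning in offspring of HF dams, a difference of -6.57 ± 2.17 percentage points (SE; exact permutation p = 0.0118, FDR 0.81). Its plus strand cytosine, 135354077, moved the other way, with 10.9% ± 7.95 against 4.22% ± 3.86 (SD, n = 9 each; 6.71 ± 2.95 percentage points, exact permutation p = 0.0311, FDR 0.81). With the reads of both strands summed, the difference at that CpG was -0.997 ± 1.26 percentage points (SE; exact permutation p = 0.443). At Nfkbia the intronic MspI-site CpG at 56592970 ranged from 0% to 20% (median 6.11%) with LF dams and from 0% to 7.69% (median 0%) with HF dams in offspring given HF. That was a difference of -6.39 ± 2.53 percentage points (SE; exact permutation p = 0.0190, FDR 0.81).

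There were 11 CpGs listed on both strands. At the 6 away from MspI sites the means of the strands differed by less than 1 percentage point. Of the 5 at MspI sites, the Nfkb2 CpG at 46378956 had 1.55% on its plus and 7.68% on its minus strand, and the Rel CpG at 23670730 had 4.97% and 8.0%. The Nfkbia CpG at 56594009 had 4.96% and 5.45%, with values from all 40 mice on both strands.

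The kappaB consensus site was searched on both strands from 250 bases before to 50 after each gene's 5′ end. It was found in 5 of the 6 genes, in all but Rela, and in 7.61% of the 34603 promoters searched. Nfkb2 held 2 separate sites, and a measured cytosine of the minus strand, 46379188, falls on the first base of the first site (46379188 to 46379198). The sites nearest to measured CpGs are printed below with the match in capitals and 6 bases on either side. The level at 46379188 was 0.377% with an SD of 1.61 percentage points within diet groups (36 mice). The second site (46379216 to 46379225) lies 2 bp from the CpG at 46379227, an MspI-site CpG at the start itself, which was at 4.57%. The Nfkb1 site, 31 to 40 bp downstream of the start, lies 32 bp from a CpG at 0.184%. The nearest measured CpG was 247 bp away for Nfkbia, 316 bp for Rel and 432 and 505 bp for the 2 sites of Relb, so these sites were not read.
Nfkb2 first site: cgtcacGGGAATTCCCCccctcg
Nfkb2 second site: ccgaaaGGGGCTTTCCcggctg
Nfkb1 site: gtcagtGGGAATTTCCagccag

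The bisulfite PCR primers that the study lists for Nfkb1 and Nfkb2 were placed on the converted genome, to see which RRBS CpGs their products hold. The Nfkb1 product, chr3:135353803-135353983, lies 528 to 708 bp downstream of the gene's 5′ end with 19 CpGs, and RRBS listed 0 of them. The Nfkb2 product, chr19:46379959-46380221, lies 732 to 994 bp downstream with 18 CpGs, and RRBS listed 1 cytosine there, at 0.113%. Of the CpGs of both products, RRBS thus read 1.

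Other genes of the pathway were counted from a list of 40 genes that carry the signal to NF-kappaB or limit it, such as the IkB kinases Chuk and Ikbkb, the adaptors Traf2 and Traf6, receptors such as Tnfrsf1a and Tlr4, and the feedback inhibitor Tnfaip3. Of these, 36 had a listed CpG within 5 kb of a start. Within 1 kb, 33 did, 24 with a mean below 10% and 9 with a mean of 10% or more. Of their 462 CpGs with reads in 36 or more mice, 0 had an FDR below 5% in any of the 7 tests. In the 4 comparisons of groups 3, 13, 13 and 9 were at unadjusted p below 0.05 (0.794%, 3.50%, 3.47% and 2.36% of those tested), beside 3.72%, 3.99%, 4.03% and 4.06% of all CpGs.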

How the data were processed

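Per the study's methods and the submitters' processing notes, MspI fragments of liver DNA were bisulfite converted and their single-end reads placed on mm9 with Bismark. The deposited values are, per cytosine and mouse, the methylated count, the total count and the methylated fraction, none of them normalized by the authors. Totals under 10 reads were already missing, so a value on 10 reads moves in steps of 10%. The fractions matched methylated over total reads within 1e-06. There were 0 columns without a mapped mouse, and no pair of mice shared identical reads at more than 4.87% of CpGs. Intervals and limits from reads cover counting error only, since reads need not be separate molecules.

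Percent methylation was computed from the counts. Starts and exons came from the GENCODE annotation of mm9. CpGs with reads in at least 36 mice (90%) were tested, each strand on its own, by Student's t-test (two-sided) for each pair of groups, 1 of the 2 tests the study names (the Wilcoxon test is the other), or a linear model over 40 mice. FDRs are Benjamini-Hochberg values over all CpGs, or all genes for window means. CpGs without variance had no p-value. Named values were also tested by permutation over mice (exact where a group had fewer than 10 values, otherwise 100000 resamples). P-values treat mice as independent. Of the CpGs with the smallest p or largest difference per gene and comparison, those with p below 0.01 are given in full. Those between 0.01 and 0.05 that are also described were chosen after their values were seen. The genes, the lists and this rule were chosen with earlier results of these data known. Alternatives were Welch's test, the exact Wilcoxon test, a quasi-binomial model with and without a dispersion floor of 1, limma on log2 ratios of the deposited counts with 0.5 added, other read and coverage minimums, summed strands, other windows, 2 covariates and leaving out each mouse. Tools were Python 3.11.15, numpy 2.4.6, scipy 1.17.1, pandas 2.3.3, R 4.3.3 and limma 3.58.1, and the tests were tried on simulated data.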

Additional observations from a re-analysis of the deposited data

Results flagged for a closer look

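One value lay far from the others of its group. At the Nfkb2 CpG at 46384933, 1 of the 10 offspring of LF dams given LF had 90.9%, while the next lowest had 97.0% and the highest 100%. Of the 40 groups of values examined this was the only such case, and chance gives about 1 in 20.

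The effect of maternal diet differed between the post-weaning diets at unadjusted p below 0.05 in 4 of the 10 interactions examined, with 0 at an FDR below 5%. Of all CpGs 4.18%, and of all gene windows 5.48%, reached that level. The 6 window means and 4 CpGs were examined, and the CpGs had been named for their differences between pairs of groups, which are part of the same contrast. The differences of the effects were -23.8 percentage points at the Rela CpG at 5640893, -16.3 at the Rela CpG at 5640855, -2.45 for the Rela window mean and -4.06 for the Nfkb1 window mean. The Rela window mean includes both CpGs, which lie on the same reads.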

How the results depend on the processing

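The count of NF-kappaB CpGs with an FDR below 5% was 0 in all 7 tests and stayed 0 under the alternatives run, and in all 200 refits without 1 mouse, except with the quasi-binomial model as estimated. That model called 7 CpGs for maternal diet and 3 for post-weaning diet over all mice, of 73 tested, beside 2.05% and 2.33% of all CpGs. Each of these CpGs had 1 to 6 methylated reads and a dispersion of 0.125 to 0.713, and with a dispersion of at least 1, chosen after seeing the data, the counts were 0 and 0. No NF-kappaB CpG had 20 reads in 36 mice, so that minimum gave no value, and at 15 reads 6 were left. At unadjusted p below 0.05 the counts of the 4 comparisons ran over the alternatives from 0 to 14, 0 to 6, 1 to 16 and 0 to 6. The high ends came from the quasi-binomial model, by which 10.8%, 10.3%, 10.7% and 10.9% of all CpGs were at that level. Over all mice the counts ran from 0 to 18 for maternal diet, 1 to 24 for post-weaning diet and 0 to 6 for the interaction, with 14%, 14.5% and 8.42% of all CpGs at that level by the same model. Without 1 mouse they ran from 2 to 5, 3 to 6 and 1 to 4, and the shares of all CpGs in these refits are not given here. Depth limits what could be seen at single CpGs.

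Of 184 alternative values of the 24 window differences, 0 had an FDR below 5%. The permutation tests among them have no FDR, and they and Welch's test repeat the main difference, so their sign could not change. Among the 184, 15 changed sign. With pooled reads these were Nfkb1 in animals fed LF (-4.99 percentage points for maternal diet), Nfkb1 (-7.27), Nfkb2 (1.35), Rela (-2.51) and Nfkbia (0.021) for post-weaning diet with LF dams, and Rela for maternal diet in animals fed LF (-0.55). With CpGs covered in all 40 mice they were Nfkb2 (0.55) and Nfkbia (0.091) for post-weaning diet with LF dams and Nfkbia (0.064) with HF dams. Within 1 kb they were Rela for maternal diet in animals fed LF (-0.12) and for post-weaning diet with HF dams (0.56). With mean methylation as a covariate they were Rel for post-weaning diet with HF dams (0.18) and Nfkbia for maternal diet in animals fed HF (-0.11), which was -0.22 with all CpGs as deposited. With total reads as a covariate it was Relb for maternal diet in animals fed LF (0.055). Pooling weights CpGs by their reads, and the other causes were not tested.

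Without 1 mouse, 16 of 480 window differences changed sign. The ranges were -0.073 to 0.15 for Nfkbia (maternal diet, fed HF), -0.068 to 0.41 for Nfkbia (maternal diet, fed LF), -0.45 to 0.00070 for Nfkbia (post-weaning diet, LF dams), -0.385 to 0.029 for Nfkb2 and -0.30 to 0.040 for Rel (post-weaning diet, HF dams). Of the window differences at unadjusted p below 0.05, that of Nfkb1 lost this level without any 1 of 10 mice and that of Relb without any 1 of 3. With pooled reads, those of Nfkb1, Nfkb2 and Rela were -1.60, -0.32 and -2.08 percentage points (unadjusted p = 0.821, 0.828 and 0.398). The Rela CpG at 5640893 kept its direction in the 10 alternatives that could be run on it. Higher read minimums, the window of 1 kb and CpGs covered in all mice gave no value for it. Several of the 10 repeat its main difference, namely Welch's and Wilcoxon tests, CpGs as deposited and the gene's 5′ end only. Summed strands repeat it too, since only its plus strand is listed. Its direction could thus change only with the quasi-binomial and limma models and the covariates. Without 1 mouse its difference between post-weaning diets with HF dams was -24.5 to -19.3 percentage points. No paired analysis was possible because the labels name neither the litter nor the cage of a mouse, and litters were not inferred from mouse numbers.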
